A study of Homo sapiens with 4 samples.

Results

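Chromosome 19 was examined in 592 windows of 100 kb, counted from the first base of the hg19 sequence. A window was kept when at least 50% of its bases lay in the assayed blocks of both macroH2A1 ChIP replicates, which left 556 windows of the 27987 kept over chromosomes 1 to 22 and X. Of the 36 windows not kept, 30 held no assayed base, and 31 lay in the centromere gap. The lost windows held 1 protein-coding gene start. Deposited segments with both a log2 ratio and a -log10 p-value of 0 were left out beforehand and did not count as assayed. Apart from that, membership did not depend on the ratio measured. The windows nearest to the threshold on the outside were 14.9%, 28.1% and 31.3% assayed and had log2 ratios of 0.73 and 0.70, 0.90 and 0.31, and 0.58 and 0.42 in replicates 1 and 2. The nearest on the inside were 51.9%, 58.1% and 58.8% assayed, with log2 ratios of 0.15 and 0.47, -0.59 and -0.46, and -1.75 and -1.62.

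The series maps macroH2A1 by ChIP-seq, sequencing of immunoprecipitated chromatin, in IMR90 cells, a line of primary human lung fibroblasts of fetal origin, grown untreated in serum and crosslinked near confluence. It holds 4 samples: 2 ChIP replicates, labelled biological, and 2 inputs of sheared chromatin without antibody. Each ChIP replicate came as a segmentation of the genome in which every segment has a log2 ratio, ChIP over input. A ratio of 0 is the level of the input as the submitters scaled it, and that scaling is not given in the sources used here. Above and below input are meant in that sense. The inputs were not analysed here on their own. The cultures carried no treatment or genetic change and were measured in bulk, so macroH2A1 in fewer cells and less of it per cell cannot be told apart.

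MacroH2A1 is a variant of histone H2A with a large macro domain at its end, best known from the inactive X chromosome and from broad silent domains of autosomes. In fibroblasts it is also found over some genes that respond to signals, and it is largely displaced from strongly transcribed genes. Chromosome 19 is the human chromosome richest in genes, and it is rich in GC, in CpG island promoters and in clustered families. Among these families are the KRAB zinc finger repressors, the pregnancy-specific glycoproteins (PSG), the kallikrein proteases and the immune receptors of the leukocyte receptor complex.

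Promoters rich in CG dinucleotides were found in some of the highest and some of the lowest windows. The 4 sequences shown here are RefSeq promoters of 300 bases, with 250 bases before and 50 after the gene start. They belong to the gene of highest and the gene of lowest ratio among the genes overlapping the 10 highest windows, and likewise the 10 lowest windows. The RefSeq table is of GRCh38.p14, and each sequence was found by exact match at 1 place on hg19 chromosome 19. Capitals mark the CG dinucleotides, and all are printed 5′ to 3′ on the strand of the gene.
PNMA8A, chr19:46974771-46975070, minus strand, from the highest windows: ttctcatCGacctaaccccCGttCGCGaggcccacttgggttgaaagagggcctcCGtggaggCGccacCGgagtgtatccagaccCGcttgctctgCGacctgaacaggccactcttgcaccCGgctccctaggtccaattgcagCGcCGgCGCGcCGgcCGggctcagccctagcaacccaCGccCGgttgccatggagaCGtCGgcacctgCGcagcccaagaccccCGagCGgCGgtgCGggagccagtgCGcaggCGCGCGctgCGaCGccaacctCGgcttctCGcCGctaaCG
CCDC8, chr19:46916772-46917071, minus strand, from the highest windows: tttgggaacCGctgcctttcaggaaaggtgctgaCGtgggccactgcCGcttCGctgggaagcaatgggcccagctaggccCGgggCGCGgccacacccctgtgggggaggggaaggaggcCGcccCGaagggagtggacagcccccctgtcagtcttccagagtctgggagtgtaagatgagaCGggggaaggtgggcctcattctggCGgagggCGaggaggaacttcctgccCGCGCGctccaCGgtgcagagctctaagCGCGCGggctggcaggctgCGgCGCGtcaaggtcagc
TBXA2R, chr19:3606824-3607123, minus strand, from the lowest windows: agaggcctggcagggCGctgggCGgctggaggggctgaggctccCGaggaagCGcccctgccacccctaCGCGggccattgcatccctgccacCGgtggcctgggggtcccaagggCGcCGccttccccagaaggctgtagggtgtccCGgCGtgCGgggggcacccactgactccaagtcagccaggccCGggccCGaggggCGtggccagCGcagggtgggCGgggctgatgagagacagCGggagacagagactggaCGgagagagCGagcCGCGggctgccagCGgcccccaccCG
SCAF1, chr19:50145216-50145515, plus strand, from the lowest windows: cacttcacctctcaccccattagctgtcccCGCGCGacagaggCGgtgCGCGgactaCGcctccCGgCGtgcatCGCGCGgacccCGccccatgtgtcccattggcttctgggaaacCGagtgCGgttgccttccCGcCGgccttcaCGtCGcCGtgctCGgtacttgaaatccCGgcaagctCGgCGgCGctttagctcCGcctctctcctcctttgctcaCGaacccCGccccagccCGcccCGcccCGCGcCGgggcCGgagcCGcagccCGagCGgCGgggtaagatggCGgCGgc

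PNMA8A, a member of the paraneoplastic antigen family, had 35 CG dinucleotides in this promoter, and its gene span had log2 ratios of 1.45 and 1.55 in replicates 1 and 2. SCAF1, which encodes a protein that binds RNA polymerase II, had 40 CG dinucleotides and log2 ratios of -3.23 and -2.80. A CG-dense promoter was thus found at both ends of the range. CCDC8, a subunit of the 3M complex, had 22 CG dinucleotides and ratios over its span of -0.20 and -0.04, although it lies in a window above input. TBXA2R, the thromboxane A2 receptor, had 24 and ratios over its span of -0.54 and -0.23 inside a window far below input. Over 5 kb centred on the gene start, CCDC8 had 0.19 and 0.26, and TBXA2R had -0.54 and -2.37, a wide replicate gap. There PNMA8A had 1.45 and 1.55 and SCAF1 had -3.16 and -2.80, close to their span values. Of all 35116 promoters in the RefSeq table, 96.0% hold at least 1 CG, read on either strand alike. The median count was 14 over that table and 21 over 1158 matched and measured genes of chromosome 19. CCDC8 and TBXA2R were thus near the median of the chromosome.

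MacroH2A1 ratios on chromosome 19 lay below the input level over most of its length. The median window had a log2 ratio of -0.85 in replicate 1 and -0.72 in replicate 2, a mean of -0.78 ± 0.09 (SD, n = 2). The other autosomes had medians of -0.41 and -0.45 in the same replicates, over 25972 windows. In each replicate the chromosome 19 median was the lowest of 23 chromosomes. Chromosomes 16, 17 and 22, which are also rich in genes, had medians over both replicates of -0.59, -0.48 and -0.56. Chromosome 19 was below each of them in each replicate. No test between chromosomes was made, because an exact test over 2 replicates cannot pass a threshold.

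The windows ranged from -2.49 to 1.40 in mean log2 ratio, and the middle 50% of them lay between -1.34 and -0.26. Counts over windows say how much of the chromosome each level took up. On chromosome 19, 80 windows (14.4%) lay above 0 in both replicates, against 28.8% of windows on the other autosomes and 30.7% of all windows. Below 0 in both replicates were 447 windows (80.4%), against 63.9% on the other autosomes and 61.9% of all windows. The remaining 29 windows (5.22%) had opposite signs in the replicates. At mean log2 ratios under -1 were 209 windows (37.6%), against 15.1% on the other autosomes and 14.8% of all windows. Enriched segments were those with a log2 ratio above 0 and a -log10 p of at least 2, and a base was called covered where both replicates were enriched. By that measure 97 windows (17.4%) were at least 50% covered, against 26.1% on the other autosomes and 28.1% of all windows. The same share was 18.9%, 30.4% and 26.9% on chromosomes 16, 17 and 22. Full coverage was found in 22 windows of chromosome 19, and 286 (51.4%) had no covered base, against 52.9% on the other autosomes.

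The replicates ordered the windows of chromosome 19 alike. Across the 556 windows Spearman's correlation between them was 0.956 and Pearson's r was 0.962, as a description over windows that share libraries and segments. Replicate 2 was higher in 417 windows (75%), with a median difference of 0.14 and an SD of 0.22 over windows. On the other autosomes replicate 2 was higher in 43.8% of windows. Chromosomes 16, 17 and 22 had 68.8%, 67.9% and 81.7%, so they shared this offset. It did not simply follow gene density over the other chromosomes. Chromosome 20, with 0.92 gene starts per window, had 69.0%. Chromosomes 1 and 11, with 0.92 and 1.00, had 49.3% and 47.1%.

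**Figure D1:**
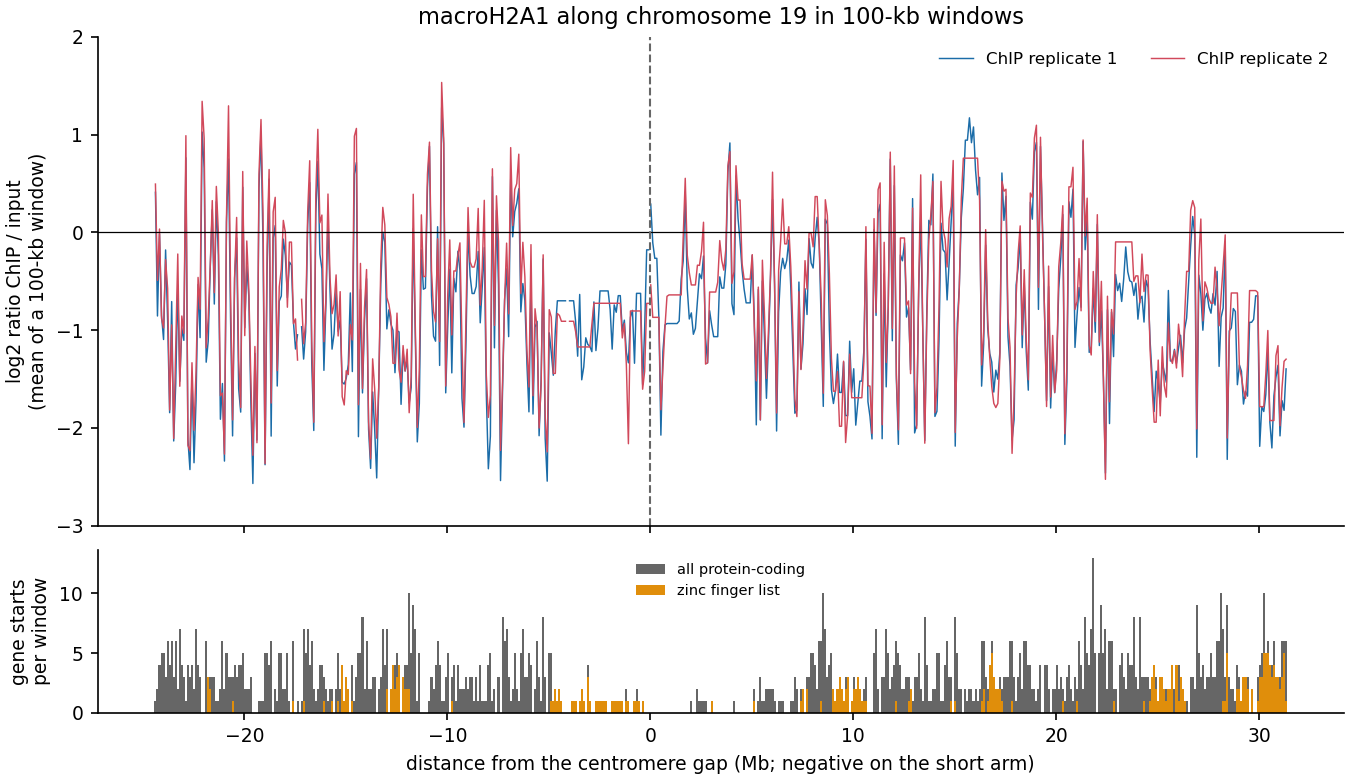
Log2 ratio of ChIP over input in the 556 kept windows, with a line per replicate (upper panel, broken where windows were not kept), and protein-coding gene starts per window with zinc finger starts in orange (lower panel), by distance from the centromere gap in Mb. Both replicates stay below 0 in the 5 longest runs, of 1.8 to 4.5 Mb, which include the short-arm side of the gap and the end of the long arm, and elsewhere the ratio often changes sign between nearby windows.

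The profile along the chromosome held many short stretches beside a few long ones below input. The correlation between windows 100 kb apart was 0.36, and it was 0.12 at 200 kb, 0.13 at 500 kb and -0.029 at 1000 kb. The deposited segments were short here too. Replicate 1 had 28.3 segments per Mb with a median length of 17.7 kb on chromosome 19, against 16.3 per Mb and 27.5 kb on the other autosomes. Replicate 2 had 16.5 segments per Mb and a median of 29.3 kb on chromosome 19, against 8.88 per Mb and 54.3 kb on the other autosomes. Many windows therefore averaged over segments of both signs. In 187 windows (33.6%) at least 10% of the bases lay above 0 and at least 10% below -1 in both replicates, against 15.8% of windows on the other autosomes. Chromosomes 16, 17 and 22 had 19.8%, 30.9% and 30.2% of such windows.

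Windows above 0 in both replicates formed 48 runs, of which 29 were single windows. The longest was 10 windows, chr19:43000001-44000000, with mean log2 ratios of 0.72 and 0.67 and 93.1% of bases covered. This megabase holds CEACAM1, CEACAM8, 10 PSG genes made by the placenta, and CD177, TEX101 and LYPD3 of the Ly6 family. The next runs were shorter. They were chr19:46400001-46800000 with IGFL1 to IGFL4, ligand genes related to insulin-like growth factors (0.55 and 0.71), chr19:17900001-18200000 with JAK3, INSL3 and SLC5A5 (0.32 and 0.58), chr19:45000001-45300000 with CEACAM16, PVR and BCL3 (0.37 and 0.46), and chr19:48300001-48600000 with the homeobox gene CRX and the sulfotransferase SULT2A1 (0.30 and 0.53). None of these 4 runs reached 500 kb.

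Windows below 0 in both replicates formed 64 runs, and 5 of these were at least 1.8 Mb long. The longest spanned 45 windows, chr19:49800001-54300000, at -1.01 and -0.89, with 152 gene starts that include the kallikreins, most Siglecs and 41 zinc finger genes. The second was chr19:54900001-59100000, the end of the long arm, at -1.25 and -1.08, with 165 gene starts. Of those, 72 belonged to zinc finger genes. The third was chr19:20600001-24600000 beside the centromere, at -0.88 and -0.95, where 29 of 32 gene starts were zinc finger genes and no base was covered. The fourth, chr19:18200001-20500000, was at -1.14 and -1.06, and the fifth, chr19:36500001-38300000, with 28 zinc finger starts of 40, was at -1.54 and -1.58.

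In sections of 5 Mb the share of windows above 0 in both replicates was highest between 40 and 45 Mb, at 34.0% of 50 windows with a median of -0.35. The section from 45 to 50 Mb had 30.0% and a median of -0.54. No window was above 0 in both replicates between 20 and 25 Mb (45 windows, median -0.80) or beyond 55 Mb (41 windows, median -1.10). The arms had medians of -0.81 over 242 windows of the short arm and -0.75 over 314 windows of the long arm. The replicate medians were -0.87 and -0.80 on the short arm, and -0.84 and -0.62 on the long arm.

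The highest window was chr19:14300001-14400000, at 1.28 and 1.53. The window beside it, chr19:14400001-14500000, was the eighth highest, at 0.91 and 0.96. They share an enriched domain of 166.2 kb, chr19:14327026-14493175, at 1.24 and 1.38. The domain lies almost wholly between ADGRL1, a latrophilin adhesion receptor, and ADGRE5, which encodes the leukocyte receptor CD97. ADGRL1 itself had -0.70 and -0.34 over its span and ADGRE5 had -1.0 and -0.73. Both windows thus carried their signal mainly outside the bodies of these 2 genes. The gene starts were above input all the same. Over 5 kb centred on the start the mean was 0.75 for ADGRL1 and 0.92 for ADGRE5, and the domain ran over the ADGRE5 start.

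The second highest window, chr19:2500001-2600000, lay inside GNG7, a G protein gamma subunit gene, at 1.03 and 1.34. GNG7 was covered along 100% of its span, at 0.83 and 1.13. The third, chr19:5400001-5500000, held ZNRF4, a ubiquitin ligase gene of testis, at 1.03 and 1.15. The fourth, chr19:3800001-3900000, held MATK, ZFR2 and ATCAY, of which ATCAY encodes the neuronal protein caytaxin, and had the widest replicate gap of the 10, at 0.75 and 1.29. The others of the 10 highest held IGFL1, PSG6 and PSG7, LMTK3 and SULT2B1, CCDC8 with the PNMA8 genes, and PSG4 and PSG5. Their replicate values lay between 0.76 and 1.17. GC content in the 10 ranged from 42.1% to 53.6%, and gene starts from 0 to 4.

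The lowest window, chr19:50100001-50200000, had -2.46 and -2.52 and no covered base. It holds 7 gene starts, among them SCAF1, the interferon regulatory factor IRF3, the small GTPase RRAS and the arginine methyltransferase PRMT1. Among the 10 lowest, 4 windows had no gene start and lay in long genes. KDM4B, a histone demethylase gene, filled chr19:5000001-5100000 (-2.57 and -2.28). GATAD2A, a subunit of the NuRD complex, filled chr19:19500001-19600000 (-2.54 and -2.24). The myosin gene MYO9B filled chr19:17200001-17300000 (-2.54 and -2.23), and SMARCA4, the SWI/SNF ATPase, took up 90.1% of chr19:11100001-11200000 (-2.51 and -2.10). The fifth lowest window without a start, chr19:5200001-5300000 inside the receptor phosphatase gene PTPRS, had -2.12 and -2.15. A window with no gene start was therefore not always a window without a gene. Other low windows held SAFB, SAFB2 and RPL36 (-2.37 and -2.36), CSNK1G2 and BTBD2 (-2.43 and -2.23), TBXA2R, CACTIN and PIP5K1C (-2.34 and -2.27), and 5 zinc finger genes with U2AF2 and EPN1 (-2.32 and -2.10).

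Windows with more gene starts had lower ratios, but the relation was weak. Across the 556 windows the log2 ratio and the number of protein-coding gene starts had a Spearman's correlation of -0.19 and a Pearson's r of -0.19. The rank correlation was -0.20 in replicate 1 and -0.17 in replicate 2. Neighbouring windows share segments, so these are descriptions without a p-value. Over the other autosomes the rank correlation was -0.10 and Pearson's r was -0.17. Chromosomes 16, 17 and 22 had rank correlations of -0.16, -0.17 and -0.064, and Pearson's r of -0.24, -0.17 and -0.14. The rank correlation of chromosome 19 was the second lowest of 23 chromosomes, but by Pearson's r chromosome 16 was lower. The median log2 ratio was -0.71 in 103 windows without a start, -0.66 in 92 windows with 1, -0.80 in 195 windows with 2 to 3, -0.92 in 101 windows with 4 to 5, and -1.10 in 65 windows with 6 or more. The same classes had medians of -0.44, -0.28, -0.55, -0.69 and -1.09 on the other autosomes. The difference, chromosome 19 minus the other autosomes, was -0.26, -0.38, -0.25, -0.23 and -0.01. Chromosome 19 was thus lower in the 4 sparser classes and level in the densest. Each replicate gave this sign in the 4 sparser classes, at -0.31 and -0.13 for windows without a start and -0.35 and -0.33 for windows with 1. On chromosomes 16, 17 and 22 together the medians were -0.56, -0.33, -0.60, -0.86 and -1.22.

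The share of windows above 0 in both replicates was 12.6%, 23.9%, 15.4%, 10.9% and 6.15% over the same 5 classes of chromosome 19. On the other autosomes it was 29.8%, 32.6%, 21.1%, 13.8% and 9.45%. The covered share of bases on chromosome 19 did not follow the order of the share above 0. It averaged 12.6%, 25.4%, 22.8%, 19.7% and 22.5%, so the densest windows were covered more than the windows without a start. Spearman's correlation between covered share and gene starts was 0.17, of the opposite sign to that of the mean ratio. The spread of the ratio within a window widened with density. Its median SD in replicate 1 was 0.22 in windows without a start, 0.48, 0.75 and 1.04 in the next 3 classes, and 1.21 in windows with 6 or more. In the densest class 45 of 65 windows (69.2%) held both kinds of bases, at least 10% above 0 and at least 10% below -1 in both replicates. In the class without a start 4 of 103 (3.88%) did. On the other autosomes these shares were 55.1% and 4.17%. The median SD in replicate 1 also widened there, from 0.11 without a start to 1.11 with 6 or more.

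**Figure D2:**
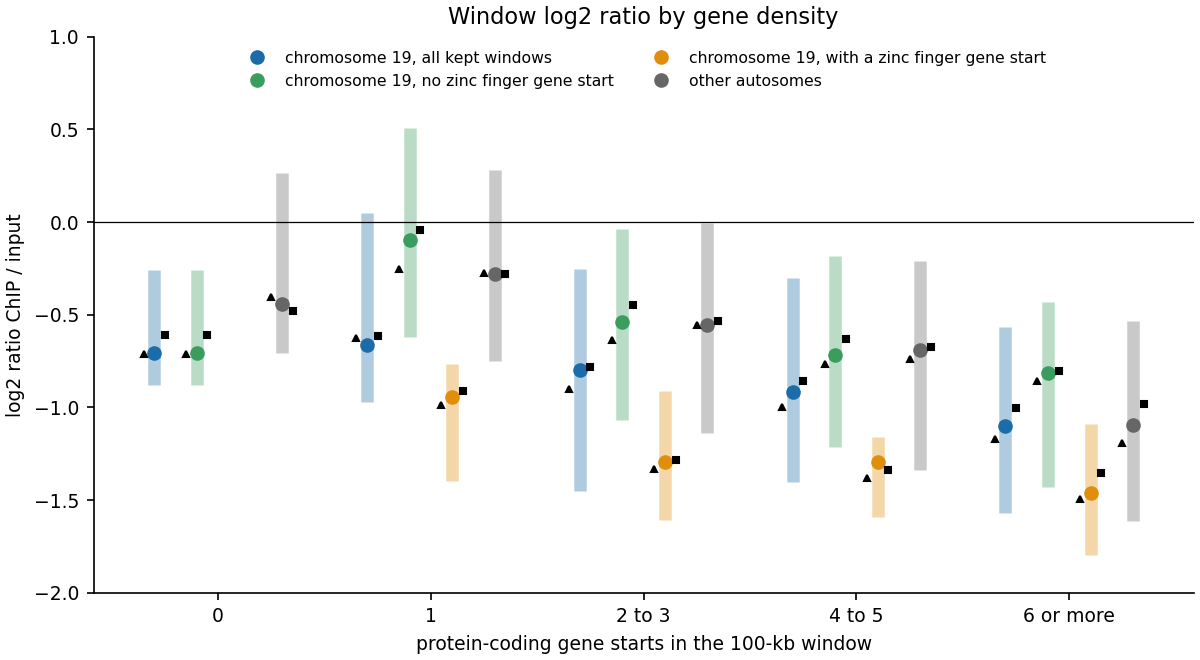
Median log2 ratio of ChIP over input (circles; bars, middle 50% of windows; triangles and squares, medians of replicates 1 and 2) by protein-coding gene starts per window, for chromosome 19, its windows without and with a zinc finger gene start, and the other autosomes. Chromosome 19 windows with a zinc finger start lie between -0.94 and -1.46 in every class that has them.

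The 5 densest windows show both situations. The window with the most starts, chr19:49500001-49600000 with 13, was at -0.57 and -0.40 with 36.0% of its bases covered. With 10 starts each, chr19:12700001-12800000 (MAN2B1, DHPS and zinc finger genes) was at -1.74 and -1.84, chr19:36200001-36300000 (KMT2B, LIN37 and PSENEN) at -1.78 and -1.64, chr19:55800001-55900000 (BRSK1, IL11 and RPL28) at -0.87 and -0.65, and chr19:57900001-58000000 (zinc finger genes) at -1.83 and -1.78. The covered share in these 4 was 0%, 16.4%, 21.1% and 0%.

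The densest window was split by a sharp boundary. LHB, the beta subunit of luteinizing hormone, had log2 ratios of -2.43 and -2.32 and lay in the same low segment as RUVBL2, an ATPase of chromatin remodelling complexes. CGB3, a gene for the beta subunit of chorionic gonadotropin, ends 5.78 kb from the LHB start and had 0.87 and 1.25, with 100% of its bases covered. The segment boundary lay 2.65 kb from the LHB start in replicate 1 and 2.23 kb in replicate 2. CGB1, CGB2, CGB5 and CGB8 shared the segment of CGB3 and hence its value, and CGB7 straddled the far boundary at -0.62 and 0.45. The enriched segment ended 38.6 kb from the LHB start in replicate 1 and 38.8 kb in replicate 2. LHB and the CGB genes are near-identical copies, as are many PSG, LILR, KIR, olfactory receptor and zinc finger genes, and how reads that match several copies were placed is not given in the sources used here.

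**Figure D3:**
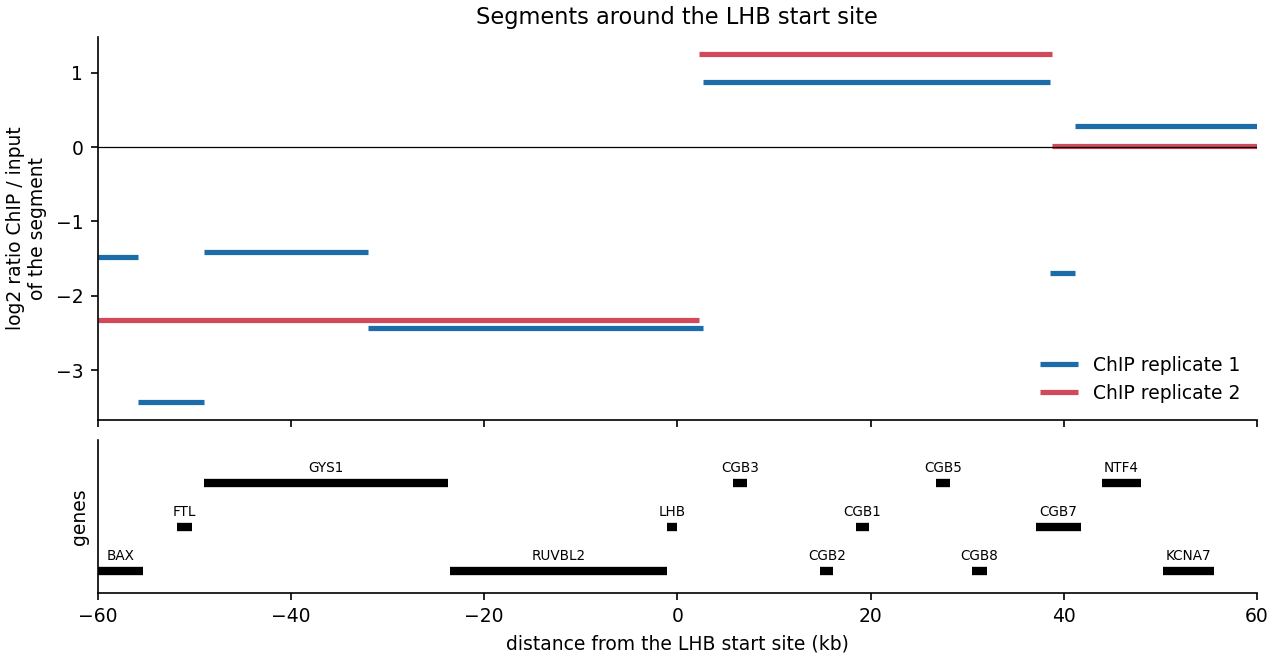
Log2 ratio of ChIP over input of each deposited segment (upper panel, colour by replicate) and protein-coding genes with a symbol (lower panel) within 60 kb of the LHB start site, by distance in kb. The low segment that holds LHB and RUVBL2 meets the segment of the CGB genes at 2.65 kb in replicate 1 and 2.23 kb in replicate 2.

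The share of a window taken up by gene bodies had a stronger rank correlation with the ratio than gene starts had. Spearman's correlation between the percent of the window inside protein-coding gene spans and the log2 ratio was -0.42, at -0.43 in replicate 1 and -0.39 in replicate 2. It was -0.29 over the other autosomes and -0.37, -0.50 and -0.40 on chromosomes 16, 17 and 22. The median log2 ratio was -0.45 in 91 windows with under 25% of bases in gene spans, -0.57 in 96 windows with 25 to 50%, -0.78 in 145 windows with 50 to 75%, and -1.23 in 224 windows with 75% or more. On the other autosomes these classes had medians of -0.22, -0.19, -0.47 and -0.66. The 2 replicates gave the same order on chromosome 19, at -0.47, -0.62, -0.85 and -1.31, and at -0.39, -0.44, -0.74 and -1.18. These 4 classes were set after the data had been seen.

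Zinc finger genes took up many of the low windows. The 140 windows with a start from the zinc finger list had a median log2 ratio of -1.26 (-1.32 and -1.27 in the replicates), and the 416 windows without had -0.60 (-0.65 and -0.53). Above 0 in both replicates were 3 (2.14%) of the windows with a zinc finger start and 77 (18.5%) of the windows without. All 36 windows with at least 3 zinc finger starts were below 0 in both replicates, with a median of -1.56. On the other autosomes 267 windows with a zinc finger start had a median of -0.79, against -0.43 in 25705 windows without.

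Without the zinc finger windows, chromosome 19 had medians of -0.71, -0.10, -0.54, -0.72 and -0.81 over the 5 density classes. The other autosomes without zinc finger windows had -0.44, -0.27, -0.54, -0.68 and -1.07. The class without gene starts holds no zinc finger start and so is the same 103 windows. Windows with 1 start or with 6 or more had higher medians than on the other autosomes. For 1 start the replicate medians were -0.25 and -0.04, against -0.27 and -0.28, so that gap lay mainly in replicate 2. For 6 or more they were -0.86 and -0.80, against -1.15 and -0.95. The classes of 2 to 3 and 4 to 5 starts had close medians. The rank correlation with gene starts was -0.13 over these 416 windows. It was -0.28 over the 313 of them that had at least 1 start, a choice made after seeing the data. Of the 103 windows without a start, 58 lay within 5 Mb of the centromere gap with a median of -0.72, and 45 lay farther away with a median of -0.56. Their means had the opposite order, at -0.61 near the gap and -0.74 farther away. The farther windows spread more widely, with the middle 50% from -1.65 to -0.01, against -0.80 to -0.46 near the gap.

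GC content showed no steady relation with the ratio. Spearman's correlation was -0.013 over the mean of the replicates, -0.059 in replicate 1 and 0.033 in replicate 2. The class medians had their peak in the middle, at -0.91 in 74 windows under 42% GC, -0.79 in 136 windows of 42 to 46%, -0.53 in 96 windows of 46 to 50%, -0.65 in 170 windows of 50 to 54%, and -1.01 in 80 windows of 54% or more. None of the 74 windows under 42% GC lay above 0 in both replicates, against 27.1% of such windows on the other autosomes. CpG dinucleotides per kb gave a rank correlation of -0.11. The covered share followed GC more closely, with a rank correlation of 0.46.

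**Figure D4:**
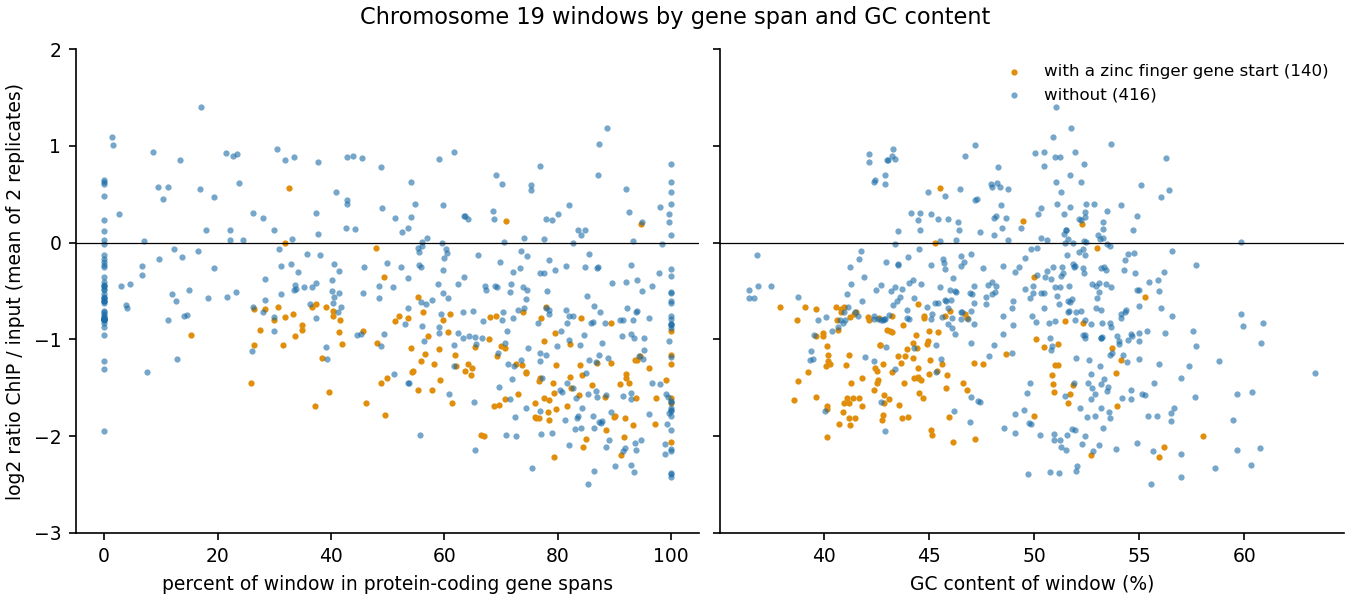
Mean log2 ratio of ChIP over input for each kept chromosome 19 window against the percent of the window inside protein-coding gene spans (left) and its GC content (right), with the 140 zinc finger windows in orange and the other 416 in blue. Windows with more gene span lie lower, and by GC the zinc finger windows fill the low corner under 46%.

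Genes on chromosome 19 had lower ratios over their spans than genes elsewhere. The 1471 measured protein-coding genes had a median of -1.37 (-1.43 and -1.25 in the replicates), against -0.86 over 17293 genes of the other autosomes. Above 0 in both replicates were 279 genes (19%), against 21.0% on the other autosomes and 22.8% of all 19517 measured genes. Below 0 in both were 1101 genes (74.8%), against 71.5% on the other autosomes and 69.7% of all. At least 50% covered were 237 genes (16.1%), against 17.5% on the other autosomes and 19.2% of all. The call rates were therefore closer to the background than the median was. The lists below are read against 19% and -1.37, without a test. Genes inside 1 segment carry the same value, so the members of a cluster are not independent.

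The CEACAM and PSG, glycoprotein hormone and interferon lambda genes had the highest medians. Of 22 CEACAM and PSG genes, adhesion molecules of epithelia and secreted proteins of the placenta, 16 were above 0 in both replicates and 14 were at least 50% covered, with a median of 0.62. CEACAM16, a gene of the inner ear, had 0.67 and 1.42, and PSG7 had 0.94 and 0.76. The lowest members were CEACAM19 (-1.07 and -0.27) and CEACAM18 (-1.03 and -0.22). Both lie outside the longest run of windows above 0, as CEACAM16 does. CEACAM19 and CEACAM16 share the shorter run chr19:45000001-45300000. The largest enriched domain of the chromosome, 240.7 kb at chr19:43314632-43555333, held PSG1, PSG6, PSG7 and PSG11. Of 7 glycoprotein hormone genes 5 were covered, with the split between LHB and CGB3 described above. All 4 interferon lambda genes lay in 1 covered segment at 0.48 and 0.68.

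Ion channel and receptor genes were split. Of 17 on the list, 9 were above 0 in both replicates and 7 were covered, with a median of 0.14. HCN2, a pacemaker channel gene, had 0.80 and 0.78, and KCNN4, a calcium-activated potassium channel gene, had 0.68 and 0.84. KCNJ14 (-1.62 and -2.46) and TRPM4 (-1.47 and -1.50) were at the other end. The skeletal muscle calcium release channel gene RYR1 was covered along its whole span at 0.29 and 0.51. In CACNA1A, a neuronal calcium channel gene, an enriched domain of 194.9 kb at chr19:13618286-13813136 overlapped the start-site end of the gene, 35.5% of the span was covered, and the whole span averaged -0.11 and 0.03.

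Several clustered immune and secretory families were below input yet above the chromosome's gene median. The 15 kallikrein genes had a median of -0.30 (-0.51 in replicate 1 and -0.10 in replicate 2), and none was above 0 in both replicates. KLK1, tissue kallikrein, was the highest at 0.07 and -0.10, and KLK14 the lowest at -0.82 and -0.89. Of 14 Siglec genes, sialic acid receptors of leukocytes and glia, 3 were above 0, with a median of -0.39 (-0.49 in replicate 1 and -0.22 in replicate 2). SIGLEC11 was the highest at 0.77 and 0.84, followed by the myelin gene MAG (0.14 and 0.37) and SIGLEC9 (0.08 and 0.10), and SIGLEC12 the lowest at -1.13 and -0.22. In the leukocyte receptor complex 3 of 25 genes were above 0, with a median of -0.68. LILRA6 and LILRB5 shared 0.17 and 0.14 and LILRB3 had 0.15 and 0.14, and KIR2DL1 and KIR2DL4 shared -0.95 and -0.72.

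Of 19 measured olfactory receptor genes (of 20 annotated) 1 was above 0, OR1I1 at 0.56 and 0.54, and the median was -0.43. Among 9 NLRP genes, sensors of innate immunity and maternal factors of the egg, none was above 0 in both replicates, and the median was -0.68. NLRP12 was the highest at 0.012 and -0.0039, and NLRP4 and NLRP11 were the lowest at -0.98 and -0.62. The 48 microRNA genes of the placental cluster C19MC and the MIR371 group were all below 0 in both replicates, with a median of -0.44 and no covered base. Of 12 cytochrome P450 genes 4 were above 0, with a median of -0.29. CYP2S1, an extrahepatic enzyme, had 0.36 and 0.65, and the others were CYP2F1, CYP2B6 and CYP2A13. CYP4F2, which hydroxylates fatty acids and vitamin K, had -0.62 and -0.35. The 5 apolipoprotein genes depended on the replicate. APOC1 had 0.57 and 0.50, APOE had 0.07 and -0.29, and APOC2 had -0.90 and 0.50.

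The lists of chromatin, ribosomal protein, DNA repair and cell cycle, and respiratory chain genes had the lowest medians of the 18 lists. Of 17 chromatin genes none was above 0 in both replicates and none was at least 50% covered, and their median was -2.43. KMT2B, a histone H3 lysine 4 methyltransferase, had -3.22 and -2.19, and TRIM28, the corepressor recruited by KRAB zinc finger proteins, had -3.07 and -2.32. The highest was the histone chaperone gene ASF1B at -0.56 and -0.68. The 13 ribosomal protein genes had a median of -2.19, from RPS15 at -2.89 and -2.82 to RPS9 at -0.53 and -0.48. The annotated RPS9 span includes a long model over LILR genes, and within 5 kb around its start the mean was -2.65.

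The 12 respiratory chain genes had a median of -2.01, from UQCR11 of complex III at -2.87 and -2.94 to COX6B2, a testis subunit of complex IV, at -0.02 and -0.07. The 13 DNA repair and cell cycle genes had a median of -2.02, with the ubiquitin-conjugating enzyme gene CDC34 at -2.87 and -2.86. ERCC1, a nuclease subunit of excision repair, was the highest at -0.01 and 0.15. None of these 3 lists of ribosomal, respiratory chain and repair genes had a member above 0 in both replicates.

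Of 16 fibroblast matrix and contractile genes 3 (18.8%) were above 0, a share close to the 19% of all chromosome 19 genes, with a median of -1.86. Over 5 kb centred on the gene start their median was -0.80 and 5 of 16 were above 0. The start-site median over all measured chromosome 19 genes was -1.08, with 295 of 1469 above 0 in both replicates. On the other autosomes 4217 of 17237 were. The 3 were TNNT1 and TNNI3, troponins of slow skeletal and cardiac muscle that shared 0.60 and 0.63, and COMP, a cartilage matrix protein, at 0.44 and 0.25. CNN2, a calponin, had -2.55 and -2.79, and CALR, the chaperone calreticulin, had -2.58 and -2.71. Of 9 measured AP-1 and immediate response genes (of 10 listed) 3 were above 0, with a median of -0.19. That median was -0.57 in replicate 1 and -0.18 in replicate 2. Over 5 kb at the gene start it was -0.76 over 8 measured genes, of which 1 was above 0. The growth factor gene GDF15 had 0.46 and 0.89, CEBPA had 0.32 and 0.99, and KLF2 had 0.38 and 0.70. GADD45B (-2.76 and -2.64) and ZFP36, which destabilises messenger RNA (-2.84 and -2.33), were the lowest.

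The zinc finger list was the largest, with 268 genes. Of these 263 were below 0 in both replicates, 3 were above 0 in both and 2 were at least 50% covered, and the median was -1.63 (-1.64 and -1.61). The 3 were ZNF541, a testis gene, at 0.81 and 1.03, ZNF114, at 0.43 and 0.59, and ZNF556, at 0.03 and 0.09. ZNF579 (-2.70 and -3.56) and ZBTB7A (-2.79 and -2.58) were the lowest. By the middle 50% of its members the list ran from -1.88 to -1.26, a narrower range than that of all chromosome 19 genes, -2.07 to -0.15.

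**Figure D5:**
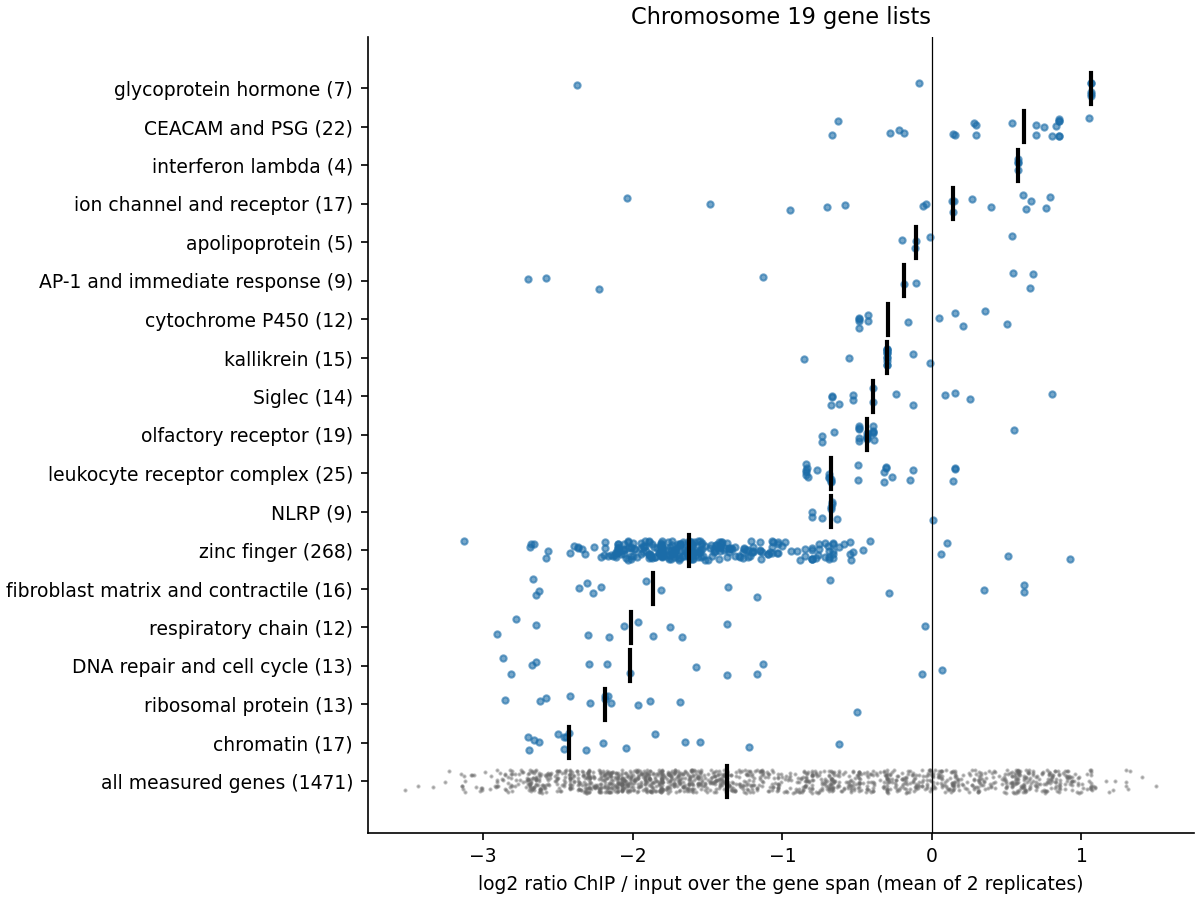
Mean log2 ratio of ChIP over input over the gene span for the members of the 18 lists (points, number measured in brackets) and for all 1471 measured chromosome 19 genes (bottom row), with black bars at the medians; vertical scatter has no meaning. Zinc finger genes form a band around -1.63, and the chromatin, ribosomal, repair and respiratory lists lie at -2.43, -2.19, -2.02 and -2.01.

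Genes with more CG dinucleotides in the promoter had lower ratios over their spans. Of 1480 protein-coding genes on chromosome 19, 1167 matched the RefSeq promoter table by symbol and 1158 of those were measured. CG was counted as the letters CG on the printed strand, where the other strand gives the same count. The median log2 ratio was -0.27 in 104 genes with under 5 CG, -0.56 in 287 with 5 to 14, -1.62 in 304 with 15 to 24, and -1.83 in 463 with 25 or more. Replicate medians kept this order, at -0.33, -0.63, -1.69 and -1.90, and at -0.10, -0.39, -1.53 and -1.75. Spearman's correlation was -0.39 across genes, which are not independent replicates. Leaving out zinc finger genes gave medians of -0.27, -0.28, -1.44 and -1.91 over the same classes. In the class of 25 or more, 48 genes (10.4%) were above 0 in both replicates, PNMA8A among them. The share was 17.5% over all 1158 matched and measured genes, and 32.7%, 26.1% and 15.1% in the 3 classes with fewer CG.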

How the data were processed

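MacroH2A1 ChIP-seq segmentations of 2 ChIP replicates were used. Per the submitters' processing notes, CASAVA 1.7 and the build hg19 were used. The sources used here do not give the aligner, the segmentation program, the treatment of duplicate reads or the scaling to input. For each segment the authors deposited a log2 ratio of ChIP over input, whose base was inferred from its values, and a -log10 p-value. Read depth is unknown, so no counting interval is given, and short peaks inside a segment cannot be seen.

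Window and gene values are length-weighted means of the log2 ratio over bases in blocks of both replicates, taken per replicate and then averaged (SD, n = 2). Gene starts and spans came from GENCODE release 44 mapped to GRCh37, the build of the files. A gene was measured when at least 50% of its span was assayed. Rank correlations and medians describe windows or genes, and no test was made, with 1 group of only 2 replicates. Promoters are RefSeq, GRCh38.p14. The reader was tested on simulated data, where 20 of 20 windows were recovered. Python 3.11.15, numpy 2.4.6, pandas 2.3.3 and matplotlib 3.10.9 were used.

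Named windows were the 10 highest, the 10 lowest, the 5 with most starts and the 5 lowest without a start, with the 5 longest runs of each sign. Named genes were the 2 highest and 2 lowest of each list by mean log2 ratio, ties by symbol. Other genes, such as RYR1, CACNA1A, COMP, KLF2, ZNF556, SIGLEC9, LILRB3, CYP2A13, CYP2B6 and the genes given with a window, run or domain, were named after their values were seen. The windows, lists and rules were chosen with earlier results of these data known. Chromosome Y was left out. A window among the 10 lowest is not reported here. The alternatives were other window lengths, an origin 50 kb later, other assayed shares, whole segments, the median of segments, stricter thresholds, other measures of density, a 5-kb window at the start site, and each replicate alone.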

Additional observations from a re-analysis of the deposited data

How the results depend on the processing

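Of the recomputed values that answer a comparison, 56 stayed within their limits and 17 moved. Of the list medians, 41 stayed, 11 moved and 2 changed sign. For medians, differences and correlations the limit was the SD between the replicates, and for replicate agreement the SD over chromosomes. Shares and counts had a fixed ratio to the main value as limit. A replicate alone mostly falls within the replicate SD by construction, so those values say little about stability. For the list medians only the 5-kb window at the gene start kept both replicates. The median log2 ratio of the windows stayed within its limits under every alternative that was run. The share of windows above 0 in both replicates (main value 14.4%) was 9.32% in 200-kb windows, 1.75% in 1000-kb windows and 21.9% by the median of segments. The share of covered windows (17.4%) was 5.26% in 1000-kb windows and 8.99% with enrichment set above a log2 ratio of 0.5. Averaging over longer windows merges segments of both signs by construction.

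The rank correlation with gene density (-0.19) was -0.13 in 50-kb windows, -0.062 in 1000-kb windows, -0.13 with windows starting 50 kb later and -0.16 by the median of segments. It was -0.42 with gene spans in place of starts, -0.13 without zinc finger windows, and -0.28 when windows with no start were left out too, an alternative added after seeing the data. The rank correlation with GC content was 0.074 in 200-kb and 0.19 in 1000-kb windows. By the median of segments the rank correlation between replicates was 0.926. The mean difference between chromosome 19 and the other autosomes over the density classes (-0.22) was -0.15 with windows starting 50 kb later and -0.28 by the median of segments. The cause of these shifts was not tested. These settings for GC content, replicates and density classes were also added after seeing the data.

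With either replicate alone the median log2 ratio lay between -0.85 and -0.72, the share above 0 between 15.1% and 18.9%, the covered share between 19.6% and 21.9%, the rank correlation with gene starts between -0.20 and -0.17, the rank correlation with GC between -0.059 and 0.033, and the difference over density classes between -0.25 and -0.18. Between 4 and 5 of 18 list medians were above 0. The apolipoprotein median changed sign, from -0.53 in replicate 1 alone to 0.50 in replicate 2 alone, and was 0.094 over 5 kb centred on the gene start. No paired analysis was possible because the inputs were not analysed here on their own and the ChIP replicates form 1 group. The median of segments gave no value for the covered share, which uses no window mean.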
